A study of Mus musculus with 18 samples.

Results

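A set of 33 genes of heart muscle cells were followed in RNA of mouse lung samples labelled as terminal bronchiolar epithelium. They encode the contractile filaments, the Z disc, the calcium store, the muscle forms of energy enzymes and the hormones of heart muscle. The genes were taken by name from the deposited table, through the platform's table of probe sets and symbols, and all 33 were measured among 19938 genes with 1 symbol. They were chosen because Cebpa d/d samples stood above control samples at 0 hr, so the values at 0 hr are given as a description with no test. The arrays belonged to 6 groups of 3. Control mice and Cebpa d/d mice, both of a mixed FVB/N and C57BL/6 strain, were sampled 0, 3 and 72 hr after naphthalene, a compound that injures the bronchiolar lining. Naphthalene is given as the treatment of every group, the 0 hr groups included. Cebpa is the gene of C/EBP alpha, a transcription factor. The labels do not say which promoter or cell type drives the deletion, the age of the mice, or whether the numbered replicates came from separate mice, so a p-value here sets a difference against the spread of these arrays, some of which may be technical.

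Heart muscle contracts when calcium, released from an internal store, binds troponin and lets myosin heads pull on actin. The force passes through titin and the Z disc to the next unit of the sarcomere. Atrial and ventricular muscle use partly different myosin light chains and myosin heavy chains. In the mouse, a sleeve of atrial-type heart muscle also runs along the pulmonary veins into the lung, so that whole lung holds cardiac transcripts. In bulk RNA, fewer cells of a type and less RNA per cell cannot be told apart.

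Values are log2 levels, on which a difference of 1 is a doubling, and the level of a gene cannot be set against that of another gene on these arrays. The 18 arrays had medians of 6.48 to 6.65. Scgb1a1, the main secretory product of club cells, lay between 12.55 and 12.98, and Foxj1, a regulator of ciliated cells, between 6.95 and 7.75. Transcripts of cells other than bronchiolar epithelium were measured in every array too: Sftpc of alveolar type 2 cells at 12.96 to 13.31, Pecam1 of endothelium at 8.99 to 10.23 and Acta2 of smooth muscle at 10.90 to 11.63. The Cebpa level of control 0 hr replicate 1 was 7.89, within the 7.83 to 9.07 of the Cebpa d/d arrays and below the 9.69 to 10.52 of the other control arrays. That array goes against its label, so counts and medians at 0 hr are also given without it. By Xist, a transcript of female cells chosen after its values were seen, 1 of 3 arrays was female in each group at 0 and 3 hr, and 3 of 3 in both groups at 72 hr.

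At 0 hr, heart muscle transcripts stood higher in the 3 Cebpa d/d arrays than in the 3 control arrays. The mean log2 level over the 33 genes was 9.80, 9.53 and 8.96 in Cebpa d/d replicates 1, 2 and 3, against 7.78, 8.12 and 6.91 in control. In the 12 arrays at 3 and 72 hr it lay between 6.87 and 7.51. Of the 33 genes, 30 had every Cebpa d/d array above every control array at 0 hr, where 5.88% of all genes did. That contrast was known when the genes were chosen, so nothing is read from the count. The same holds for the counts by role given below, which stand against the same 5.88% (12.9% without control 0 hr replicate 1). The same 30 genes had every Cebpa d/d array at 0 hr above all the other 15 arrays. The share of all genes that did so was not counted, and nothing is read from this count either. The median difference of means was 1.95, against 0.02 over all genes, and 27 of the 33 differed by more than 1. Without control 0 hr replicate 1 the median was 1.84 and 31 genes lay apart in this direction, against 12.9% of all genes. Counts with that array placed in the Cebpa d/d group were not made. Its mean of 7.78 lay below the 8.12 of control replicate 2, so the genotypes would then overlap in this mean. Genes just inside and just outside the 0 hr pattern were Ckm at 0.38, with the groups apart, and Actc1 at 0.56 and Nppb at 0.20, with overlapping groups. Nebl differed by -0.29, the opposite way.

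**Figure D1:**
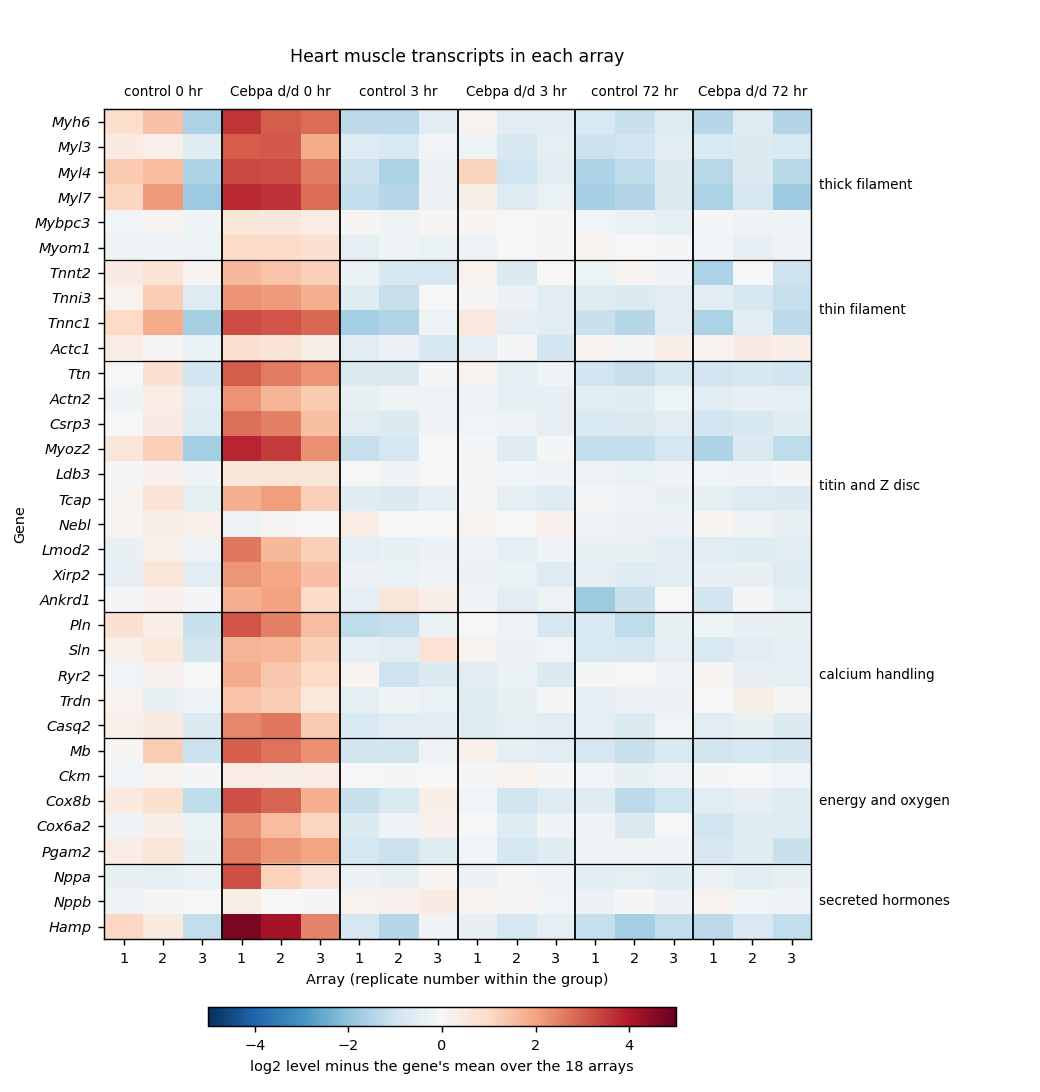
Log2 level of each of the 33 heart muscle genes (rows, grouped by role) in each of the 18 arrays (columns, grouped by genotype and time, with replicate numbers), minus the gene's mean over the 18 arrays. The mean over genes of this deviation was 2.24, 1.97 and 1.40 in Cebpa d/d at 0 hr and between -0.70 and 0.56 in the other 15 arrays, with control 0 hr replicates 1 and 2 at the upper end.

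The start regions of 4 genes are shown because they are examples from the thick filament (Myl7), the thin filament (Tnnc1) and the secreted hormones (Nppa and Hamp). Each is the 250 bases before the RefSeq start, assembly GRCm38.p6, 5′ to 3′ on the strand of the gene. Capitals mark matches to letters searched in the start regions. The motif of the MEF2 factors was written as CTANNNNTAG, with any base at each N, so a match is to these letters only. The letters AGATAA stood for the motif of the heart's zinc finger factors of the GATA family. The letters CATTCC stood for the muscle element called MCAT, and the letters TATAAA for the core promoter's TATA box. The CArG box of serum response factor was searched too. All were searched on both strands except the TATA box, which was searched on the strand of the gene. Bases are counted back from the start, the last base before it being -1, and the matches shown do not overlap. The Myl7 region is chr11:5898783-5899032 on the minus strand, with an MCAT match from base -70 and a CArG match from base -61. The Nppa region is chr4:148000472-148000721 on the plus strand, with a TATA match from base -9. The Tnnc1 region is chr14:31208062-31208311 on the plus strand, with an MCAT match from base -58. The Hamp region is chr7:30944030-30944279 on the minus strand, with a GATA match from base -128.
Myl7: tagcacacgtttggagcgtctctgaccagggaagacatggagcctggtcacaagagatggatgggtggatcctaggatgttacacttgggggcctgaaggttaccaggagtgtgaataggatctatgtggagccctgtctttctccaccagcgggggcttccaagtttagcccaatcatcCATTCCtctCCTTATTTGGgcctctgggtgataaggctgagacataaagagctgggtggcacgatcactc
Nppa: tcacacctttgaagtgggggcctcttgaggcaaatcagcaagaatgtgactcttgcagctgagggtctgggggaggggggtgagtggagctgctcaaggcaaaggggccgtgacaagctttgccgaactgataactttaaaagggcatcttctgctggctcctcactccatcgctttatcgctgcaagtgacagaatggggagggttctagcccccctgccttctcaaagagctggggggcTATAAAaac
Tnnc1: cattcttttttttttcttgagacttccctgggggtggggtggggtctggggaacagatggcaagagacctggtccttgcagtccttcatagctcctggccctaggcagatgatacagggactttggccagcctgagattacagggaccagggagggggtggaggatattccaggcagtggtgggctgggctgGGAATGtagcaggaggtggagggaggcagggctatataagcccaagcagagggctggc
Hamp: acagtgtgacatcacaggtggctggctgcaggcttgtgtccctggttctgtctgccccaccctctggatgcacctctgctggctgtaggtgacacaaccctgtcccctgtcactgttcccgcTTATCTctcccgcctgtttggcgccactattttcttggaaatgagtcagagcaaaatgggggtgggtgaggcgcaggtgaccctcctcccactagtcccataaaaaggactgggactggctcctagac
Start regions were found for 29 of the 33 genes. These 29 have 37 start regions in the table, since a gene can have several. A CArG match stood in 7 of the 37 regions (of Actc1, Ldb3, Myl3, Myl7, Myom1 and Nebl), and in 1.47% of all 32851 regions. A MEF2 match stood in 5 (Ldb3, Mybpc3, Myoz2, Ttn and Xirp2), against 3.2% of all regions. GATA, MCAT and TATA matches stood in 8, 8 and 3 of the 37 regions, against 9.99%, 12.6% and 7.59% of all regions. A match describes letters in this window and says nothing of a factor bound there.

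Genes of the thick filament, where the myosin motors sit, were led by Myl7, the atrial regulatory light chain, with a difference of 2.91 ± 0.67 (SE of the fit). Its log2 level at 0 hr was 11.64, 11.51 and 10.71 in Cebpa d/d replicates 1, 2 and 3, and 8.97, 10.05 and 6.10 in control. At 3 hr it was 8.25, 7.25 and 7.59 in Cebpa d/d and 6.68, 6.49 and 7.61 in control, and at 72 hr 6.34, 7.08 and 6.09 against 6.26, 6.45 and 7.20. The genotypes were apart at 0 hr only, and the control arrays at 0 hr were themselves far from each other, with a mean of 8.37 ± 2.04 (SD, n = 3). Myh6, the alpha heavy chain of atrial myosin and the main heavy chain of adult mouse heart, was 10.94, 10.40 and 10.15 in Cebpa d/d at 0 hr and 8.23, 8.83 and 5.80 in control. All 12 later arrays lay between 5.92 and 7.54 for Myh6. Myl4, the atrial essential light chain, was 11.68, 11.65 and 10.92 against 9.67, 9.90 and 6.82, and Cebpa d/d 3 hr replicate 1 stood out later at 9.47. Myl3, the essential light chain of ventricle and slow skeletal muscle, differed by 2.63 ± 0.30 (SE of the fit) at 0 hr. Myom1, which ties myosin together at the M band, differed by 1.11, and Mybpc3, the cardiac myosin-binding protein C, by 0.59. All 6 thick filament genes had the Cebpa d/d arrays above the control arrays, with a median difference of 2.62, and of 2.94 without control replicate 1. Myh6 has a close copy in Myh7, and the share of signal between them is uncertain.

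The thin filament carries the troponin complex that senses calcium. Tnnc1, the troponin C of heart and slow skeletal muscle, was 12.01, 11.89 and 11.61 in the Cebpa d/d arrays of 0 hr, against 9.76, 10.59 and 7.10 in control. At 3 hr it was 9.29, 8.35 and 8.21 in Cebpa d/d and 7.07, 7.24 and 8.49 in control, and at 72 hr 7.16, 8.18 and 7.43 against 7.62, 7.33 and 8.22. The genotypes overlapped at both later times. Tnni3, the inhibitory troponin of heart, was 12.38, 12.25 and 11.92 at 0 hr in Cebpa d/d against 10.30, 11.36 and 9.46, and Tnnt2, the cardiac troponin T, 12.85, 12.68 and 12.42 against 11.64, 11.93 and 11.37. Actc1, the cardiac alpha actin, behaved differently from the troponins. It was 12.61, 12.44 and 12.11 in Cebpa d/d and 12.18, 11.84 and 11.45 in control at 0 hr, which overlap by a single control array, replicate 1, so that without it all 4 thin filament genes lay apart, at a median difference of 1.39. At 3 hr Actc1 was 11.36, 11.70 and 10.83 in Cebpa d/d and 11.29, 11.50 and 10.99 in control, and at 72 hr 11.96, 12.22 and 12.14 against 11.93, 11.71 and 12.15, so that the lowest array of each genotype was at 3 hr. The actins are near copies of each other, so signal of the skeletal and smooth muscle actins in this probe set cannot be told apart.

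**Figure D2:**
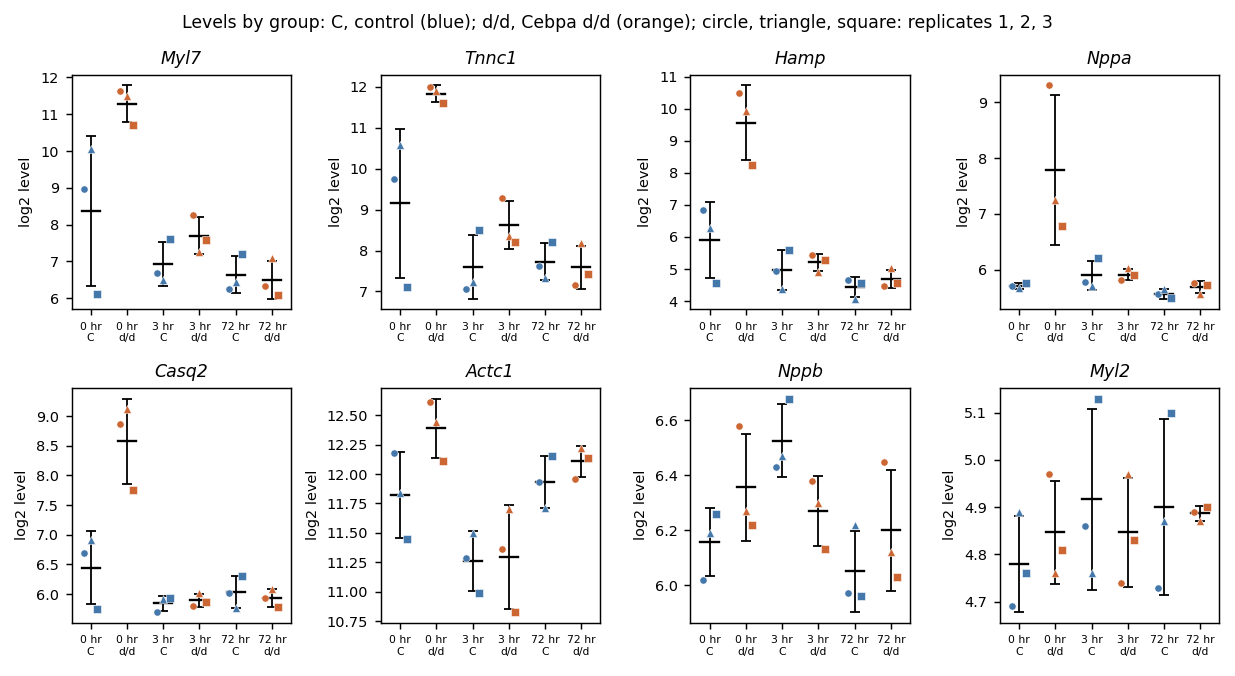
Log2 level per array for 7 heart muscle genes and, at the end, Myl2, the ventricular regulatory light chain. Points are arrays (circle, triangle and square for replicates 1, 2 and 3, control in blue and Cebpa d/d in orange), lines are means and bars are SD of 3 arrays; each vertical axis has its own range and does not start at 0. Myl7, Tnnc1, Hamp, Nppa and Casq2 had their highest arrays in Cebpa d/d at 0 hr, Actc1 had its lowest array of each genotype at 3 hr, and Nppb and Myl2 spanned under 1 unit.

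Of 10 genes of titin and the Z disc, 9 had the groups apart at 0 hr with Cebpa d/d higher, at a median difference of 1.92 over the 10 (1.83 without control replicate 1). Myoz2, calsarcin of the cardiac Z disc, was 10.80, 10.48 and 9.26 in Cebpa d/d at 0 hr and 7.60, 8.16 and 5.28 in control. Its 12 later arrays lay between 5.42 and 7.0, below control replicates 1 and 2 at 0 hr. Ttn, the giant spring protein titin, was 9.92, 9.49 and 9.16 against 6.91, 7.66 and 5.93, a difference of 2.69 ± 0.31. Csrp3, the muscle LIM protein, differed by 2.33, Xirp2, a protein of the intercalated disc, by 2.01, and Lmod2, which sets thin filament length, by 1.95. Actn2, the sarcomeric alpha-actinin, differed by 1.89 and Tcap, which caps titin at the Z disc, by 1.58. Ankrd1, a stress-responsive titin partner, differed by 1.54 and Ldb3, the Z disc protein Cypher, by 0.62. Nebl, the nebulin relative nebulette, ran the other way: 8.70, 8.98 and 8.94 in the Cebpa d/d arrays of 0 hr, against 9.03, 9.26 and 9.21 in control. This rests on the choice between its 2 probe sets. The set not kept, which had the lower mean level, was 9.78, 9.66 and 9.22 in Cebpa d/d and 8.53, 9.13 and 8.87 in control, a difference of 0.71 with the Cebpa d/d arrays higher. Which exons the sets cover is not given in the sources used here.

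All 5 genes of calcium handling had the Cebpa d/d arrays above the control arrays at 0 hr, at a median difference of 1.55 (1.70 without control replicate 1). Pln, the phospholamban that restrains the calcium pump, was 10.81, 10.19 and 9.18 against 8.43, 7.98 and 6.52. Casq2, the cardiac calsequestrin that holds calcium in the store, was 8.86, 9.11 and 7.76 against 6.69, 6.91 and 5.74, and its 12 later arrays lay between 5.70 and 6.31. Sln, the atrial pump inhibitor sarcolipin, differed by 1.55, and Ryr2, the calcium release channel of heart, by 1.39. Trdn, which anchors calsequestrin to that channel, differed by 1.20 in the probe set kept. Trdn has 19 probe sets, of which 18 had a higher mean in Cebpa d/d and 11 had the groups apart, with differences of -0.02 to 2.70 and a median of 0.69.

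All 5 genes of energy and oxygen supply had the Cebpa d/d arrays above the control arrays at 0 hr, at a median difference of 2.05 (2.14 without control replicate 1). Mb, the oxygen-storing myoglobin, was 10.48, 10.22 and 9.77 in Cebpa d/d at 0 hr and 7.55, 8.77 and 6.40 in control. Cox8b, a muscle form of a cytochrome c oxidase subunit, was 10.93, 10.63 and 9.48 against 8.18, 8.49 and 6.43. Among the 6 arrays at 0 hr, both were highest in Cebpa d/d replicate 1 and lowest in control replicate 3. Pgam2, the muscle phosphoglycerate mutase, differed by 2.05, Cox6a2, the other muscle oxidase subunit, by 1.68 and Ckm, the muscle creatine kinase, by 0.38.

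The 3 hormone genes differed from each other. Hamp encodes hepcidin, the iron hormone made mainly by liver and also by heart. It was 10.50, 9.94 and 8.26 in Cebpa d/d at 0 hr and 6.83, 6.29 and 4.57 in control, a difference of 3.67 ± 0.53 that was the largest of the 33 genes, and of 4.14 without control replicate 1. At 3 and 72 hr the 12 arrays lay between 4.08 and 5.60. The near copy Hamp2, chosen after its values were seen, stayed within 7.57 and 8.47 in all 18 arrays. The Hamp2 probe set thus did not share a 0 hr difference of the size seen in the Hamp set. How far each set also reads the other copy was not tested. Nppa, the atrial natriuretic peptide, was 9.31, 7.25 and 6.79 in Cebpa d/d at 0 hr and 5.70, 5.66 and 5.76 in control. Cebpa d/d replicate 1 stood above the other arrays of its group by over 2 units, and control replicates 1 and 2 did not share the raised levels they had for Myl7 and Myh6. Nppb, the natriuretic peptide of ventricle, was 6.58, 6.27 and 6.22 against 6.02, 6.19 and 6.26, with overlapping groups.

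Further myosin chains of ventricle and slow muscle, Myl2 and Myh7, had overlapping groups at 0 hr, while Myl3, a chain of the same muscles, was 10.40, 10.47 and 9.23 in Cebpa d/d and 7.80, 7.63 and 6.78 in control. Myl2, the ventricular regulatory light chain, was 4.97, 4.76 and 4.81 in Cebpa d/d and 4.69, 4.89 and 4.76 in control, and lay between 4.69 and 5.13 in all 18 arrays. Myh7, the slow beta heavy chain, was 7.15, 7.62 and 7.14 against 7.27, 7.07 and 6.93.

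The spread among arrays of a group was wide for heart muscle genes. At 0 hr the median SD over the 33 genes was 0.53 in control (0.69 for replicates 2 and 3) and 0.43 in Cebpa d/d. It was 0.15 to 0.31 in the other groups, and 0.11 to 0.14 over all genes. The order of arrays was shared across genes. In control at 0 hr, replicate 2 was the highest array for 26 of the 33 genes (38.6% of all genes) and replicate 3 the lowest for 25 (28.1% of all genes). In Cebpa d/d at 0 hr, replicate 1 was the highest for 25 (38.6%) and replicate 3 the lowest for 30 (33.2%). At 3 hr, control replicate 3 was the highest for 25 (41.0%) and Cebpa d/d replicate 1 for 23 (32.2%). By Xist, the female arrays at 0 hr were control replicate 3 and Cebpa d/d replicate 1, which stood at opposite ends of the heart muscle levels. The part of sex in these levels was not tested, and with 1 female array per group it cannot be told apart from the single array.

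Over the 18 arrays, the level of 22 of the 33 genes correlated at over 0.9 with the mean deviation of the other members, with a median of 0.96. Over the 12 arrays at 3 and 72 hr it was 5 genes, with a median of 0.50. Without control 0 hr replicate 1 it was 23 genes, with a median of 0.97. There the mean included the gene itself, so 23 cannot be set directly against 22. These are descriptions, since the arrays share the 0 hr pattern by which the genes were chosen. Actc1 (0.53), Nppb (0.21) and Nebl (-0.01) followed the mean of the other members least over the 18 arrays. Of genes outside the module, the 15 most like it over the 18 arrays had correlations of 0.96 to 0.99 (-0.01 for Fgf12 to 0.94 for Ckmt2 over the 12 later arrays), and 9 of them were on a textbook list of other cardiac genes. Hrc, a calcium-binding protein of the store, was 10.52, 9.95 and 9.09 in Cebpa d/d at 0 hr and 7.76, 8.11 and 6.49 in control. Ckmt2, the mitochondrial creatine kinase of muscle, Fabp3, the fatty acid binding protein of heart, Cox7a1, a muscle oxidase subunit, and Smpx, a small muscle protein, were among the closest too. The others were Mlip, Txlnb, Eno3, Mhrt, Mylk3, Kcnj3, Fgf12, Mapk10, Myom2 and Cmya5. The airway trefoil peptide gene Tff2, chosen after its values were seen, had a correlation of 0.91 (0.36 over the 12 later arrays) and was 8.37, 8.10 and 8.13 against 7.23, 7.43 and 6.40. The epithelial adhesion genes Epcam and Cdh1, chosen in the same way, had correlations of -0.83 and -0.86 (-0.10 and -0.24 over the 12 later arrays).

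Further cardiac genes were read from a textbook list that shares no gene with the module. The gene lists were chosen with earlier results of these data known, and the 0 hr contrast is the one that chose the module. Nothing is therefore read from the counts of this list, nor from its overlap with the most alike genes above. Of 50 measured, 27 had the Cebpa d/d arrays above all control arrays (5.88% of all genes), 12 differed by over 1 and the median was 0.39. Without control 0 hr replicate 1, 32 did (12.9% of all genes), with a median of 0.40. The 6 with the widest differences were Hrc (2.40), Cox7a1 (2.39), Fabp3 (2.26), Ckmt2 (2.17), Smpx (2.14) and Klhl31 (2.08), the last a muscle protein of the Kelch family. Of 19 cardiac transcription factors, 4 lay apart in the same direction (5.88% of all genes), with a median of 0.10 over the 19. Without control replicate 1 it was 5 (12.9% of all genes), with a median of 0.08. Tbx20, a T-box factor of heart, was 6.42, 6.48 and 5.78 against 5.10, 5.29 and 4.89, and Tbx5, needed for atria and also made in lung, differed by 0.48. The rest of the 4 were Nkx2-5 at 0.16 and Tbx18, named after their values were seen.

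Other cell types were examined at 0 hr for the whole of each list, and their part in the heart muscle values was not tested. Of 25 skeletal muscle markers, 4 had the Cebpa d/d arrays above the control arrays (Myl1, Tnnt3, Eno3 and Neb, named after their values were seen), where 5.88% of all genes did, and the mean level of the list was 6.51 to 6.90 in Cebpa d/d against 6.30 to 6.37 in control. Acta1, the skeletal actin, was 7.64, 7.16 and 8.06 against 6.92, 7.15 and 7.26, and Mylpf, the fast skeletal light chain, 6.03, 5.86 and 6.70 against 5.93, 5.83 and 6.21. Among the Cebpa d/d arrays at 0 hr, replicate 3, the lowest for 30 of the 33 heart muscle genes, was the highest for 13 of the 25 skeletal markers and the lowest for 4. Acta1 and Mylpf are among the 13, while Eno3, at 9.58, 9.59 and 8.70 in replicates 1, 2 and 3, and Casq1, at 8.03, 8.20 and 7.09 and named after its values were seen, were lowest in replicate 3. Of 7 adipocyte markers, 2 lay apart (Fabp4 and Retn) with Cebpa d/d higher, against the same 5.88%, and the list's mean was 6.26 to 7.15 against 5.92 to 6.20. Adipoq, the fat cell hormone adiponectin, was 7.92, 7.29 and 5.53 against 6.15, 5.37 and 4.90, which overlap. The smooth muscle list was 9.46 to 9.52 against 9.43 to 9.64, the endothelial list 8.85 to 9.13 against 8.76 to 9.25, the fibroblast list 8.92 to 9.14 against 8.88 to 9.15 and the club cell list 12.11 to 12.17 against 11.91 to 12.23, all overlapping. Of 14 smooth muscle markers, 3 lay apart with Cebpa d/d lower, Myh11 and Acta2 among them (5.48% of all genes). Of 9 club cell markers, 2 lay apart with Cebpa d/d lower (5.48% of all genes) and 1, Scgb1a1, higher (5.88%). Of 12 endothelial markers 1 was lower (5.48%), and of 12 fibroblast markers 0 lay apart. The ciliated cell list was lower in Cebpa d/d, at 8.67 to 8.93 against 9.0 to 9.54, with 5 of 10 markers apart in that direction (5.48% of all genes). The macrophage list was higher in Cebpa d/d, at 7.28 to 7.42 against 7.14 to 7.26, with 1 of 9 markers apart (5.88% of all genes). The mesothelial list was 7.05 to 7.36 against 7.0 to 7.42, the Schwann and nerve list 6.19 to 6.36 against 6.02 to 6.29, the alveolar type 2 list 10.30 to 10.44 against 10.21 to 10.58 and the list of 2 red blood cell markers 6.99 to 7.43 against 7.09 to 7.23, all overlapping. The alveolar type 2 overlap rests on control replicate 1: without it control was 10.21 to 10.25, below every Cebpa d/d array. Of 10 alveolar type 2 markers 2 lay apart with Cebpa d/d lower, and of 8 mesothelial markers 1 (5.48% of all genes). Of 6 Schwann and nerve markers 1 lay apart with Cebpa d/d higher (5.88%). Without control replicate 1, Cebpa d/d was higher for 7 of the 25 skeletal and 3 of the 7 adipocyte markers (12.9% of all genes). It was lower for 9 of the 10 ciliated cell markers (11.4%). Against the same 12.9% and 11.4% of all genes, higher and lower markers were then 5 and 1 of 12 fibroblast and 4 and 3 of 10 alveolar type 2 markers. They were 3 and 1 of 12 endothelial, 3 and 0 of 9 macrophage and 3 and 4 of 14 smooth muscle markers. They were 2 and 3 of 9 club cell, 0 and 1 of 8 mesothelial and 1 and 0 of 6 Schwann and nerve markers.

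**Figure D3:**
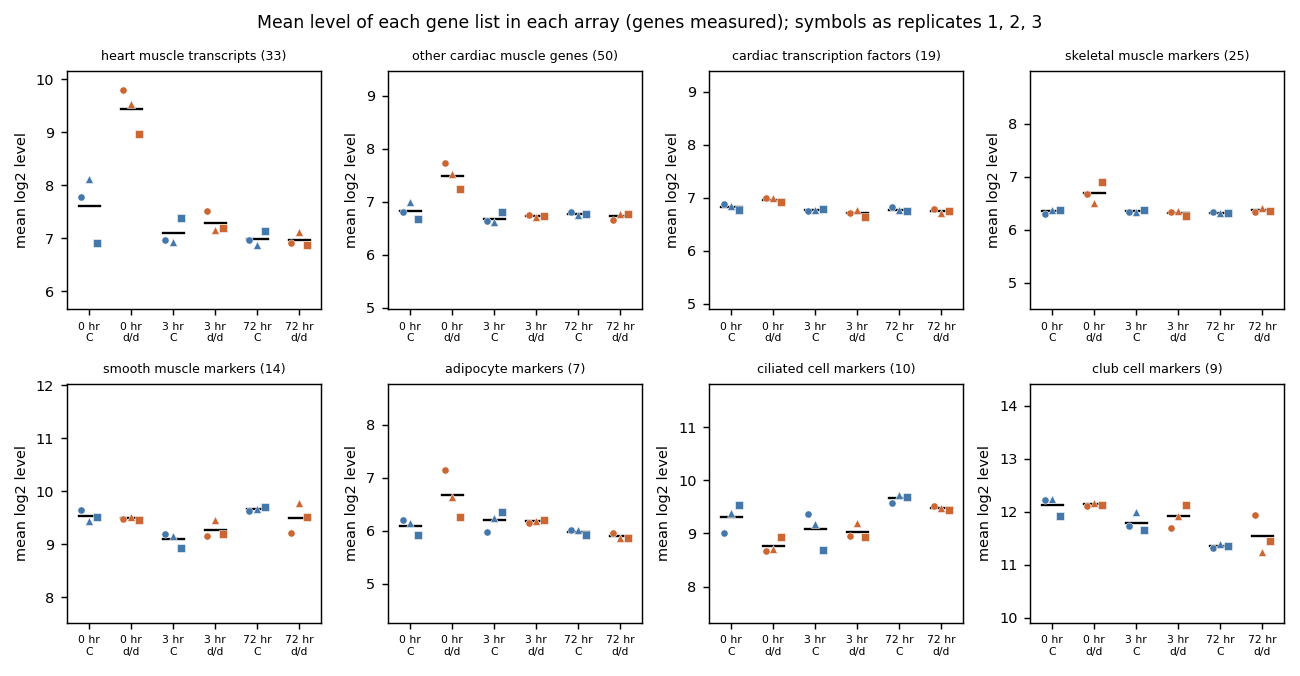
Mean log2 level over the measured genes of 8 gene lists (number in brackets) in each array, with circle, triangle and square for replicates 1, 2 and 3, control in blue, Cebpa d/d in orange and a line at the group mean; each axis spans the same number of log2 units. At 0 hr the heart muscle genes were at 8.96 to 9.80 in Cebpa d/d and 6.91 to 8.12 in control, while the smooth muscle list lay at 9.43 to 9.64 in all 6 arrays.

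At 3 and 72 hr the mean level over the 33 genes lay below that of every Cebpa d/d array at 0 hr and overlapped that of the control arrays at 0 hr. Against 0 hr, the median difference over the 33 genes was -2.12 at 3 hr and -2.37 at 72 hr in Cebpa d/d, with 28 and 26 genes below -1. In control it was -0.51 and -0.49, with 6 and 7 genes below -1, and -0.37 and -0.52 without control 0 hr replicate 1. These differences use the 0 hr arrays by which the genes were chosen and were not tested, and the 2 of a genotype share those arrays. The widest were Hamp, at -4.36 and -4.88 in Cebpa d/d, and Myl7, at -3.59 and -4.78.

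The genotypes were then tested at 3 hr and at 72 hr, with arrays that played no part in the 0 hr difference. At 3 hr, 0 of the 33 genes passed limma's test at an adjusted p under 0.05, where 0.015% of all genes did, and 1 gene, Myom1, had an unadjusted p under 0.05 (5.02% of all genes). The median difference was 0.06, against -0.02 over all genes, and the smallest adjusted p was 0.977. The largest differences were Tnnc1 at 1.02 ± 0.63 (95% interval -0.31 to 2.34), Myl4 at 0.83 ± 0.65 and Myl7 at 0.77 ± 0.67 (-0.65 to 2.19). With the 0 hr arrays left out of the fit the interval of Tnnc1 was 0.14 to 1.89 (adjusted p = 0.865), and that of Myh6, at 0.75, was 0.15 to 1.34 (adjusted p = 0.834). For Hamp the difference was 0.23 with an interval of -0.88 to 1.35. Only Nppb had its groups apart at 3 hr, with Cebpa d/d lower at 6.38, 6.30 and 6.13 against 6.43, 6.47 and 6.68; over all genes 9.79% lay apart in either direction.

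At 72 hr, 0 of the 33 genes passed limma's test (0.0702% of all genes), 4 had an unadjusted p under 0.05 (12.1%, against 6.31% of all genes), and the smallest adjusted p was 0.693. The median difference was 0.01, against 0.02 over all genes. Groups lay apart for 5 genes, where 15.1% of all genes did: Trdn was higher in Cebpa d/d by 0.43 and Pgam2, Lmod2, Myom1 and Tcap lower. Pgam2 was 6.77, 6.95 and 6.45 in Cebpa d/d and 7.40, 7.34 and 7.40 in control, a difference of -0.66 ± 0.23 (adjusted p = 0.693). For Myl7 the interval of the difference was -1.56 to 1.29 and for Hamp -0.85 to 1.37. The wide spread at 0 hr enters these standard errors, as all groups share it. With the 0 hr arrays left out of the fit, 0 of 33 passed at either time as well.

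**Figure D4:**
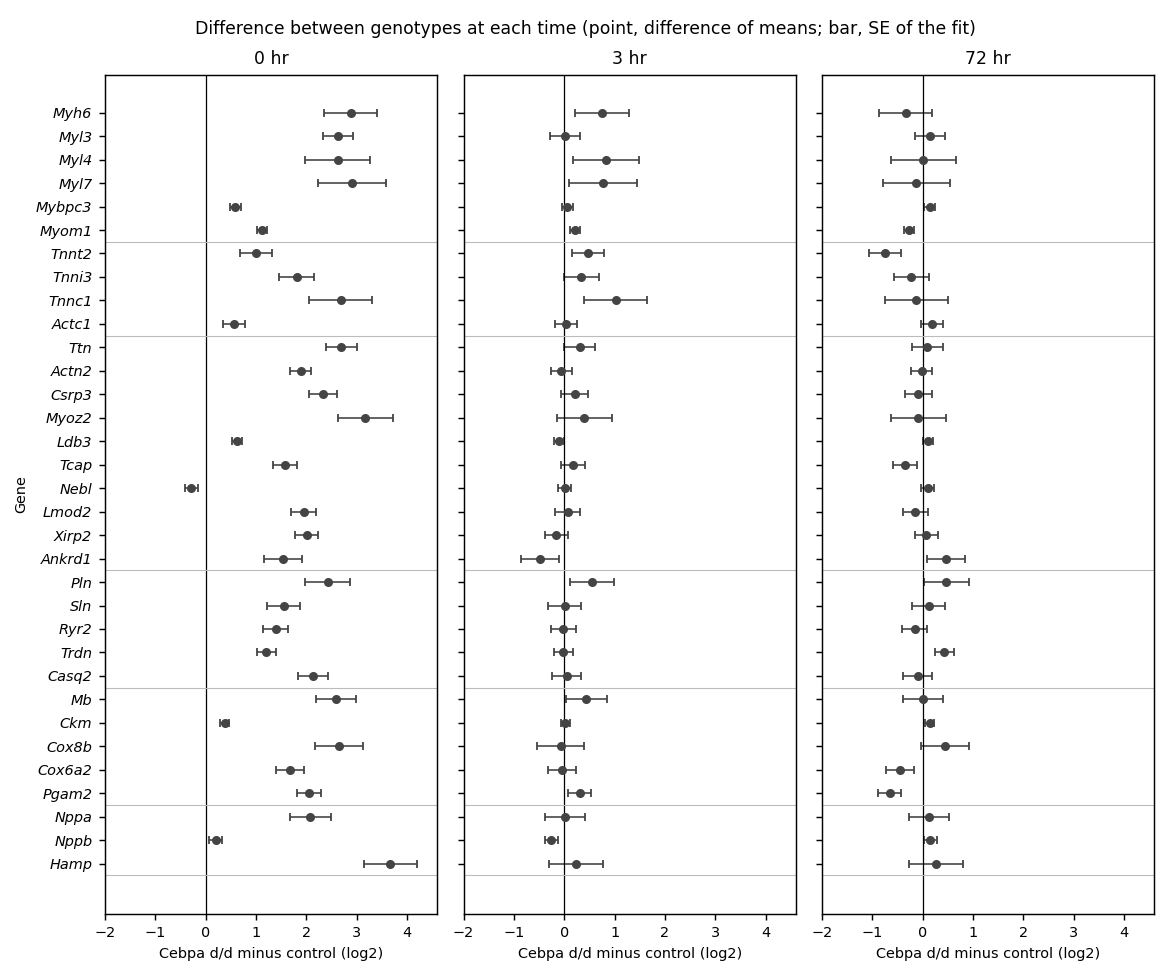
Difference of mean log2 level, Cebpa d/d minus control, for each of the 33 heart muscle genes (rows, in the order of roles) at 0, 3 and 72 hr; points are differences and bars the SE of the fit of all 18 arrays. At 0 hr, 32 of 33 points lie above 0 and Nebl below; at 3 and 72 hr the median differences are 0.06 and 0.01, and 0 of 33 genes passed the test. The 0 hr panel is the contrast by which the genes were chosen.

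Between 3 and 72 hr, 5 of the 33 genes passed limma's test in control (19.7% of all genes) and 1 in Cebpa d/d (8.55% of all genes). In this fit neither share stood above that of all genes. With the 0 hr arrays left out, the share in Cebpa d/d did, at 4 of 33 against 8.27% of all genes. Actc1 rose in both: by 0.67 ± 0.22 in control (adjusted p = 0.0385) and by 0.81 ± 0.22 in Cebpa d/d (adjusted p = 0.0267), with every array at 72 hr above every array at 3 hr in both genotypes. In control Myom1 rose by 0.35 ± 0.10 (adjusted p = 0.0235), from 7.36, 7.63 and 7.52 to 7.97, 7.87 and 7.72. Nppb fell by 0.48 ± 0.13 (adjusted p = 0.0156), from 6.43, 6.47 and 6.68 to 5.97, 6.22 and 5.96. Nebl fell by 0.39 ± 0.13 (adjusted p = 0.0402), and Ankrd1 by 1.13 ± 0.38 (adjusted p = 0.049), from 6.94, 8.0 and 7.75 to 5.61, 6.28 and 7.44, which overlap. Without control 72 hr replicate 1 the Ankrd1 difference was -0.71, and without single arrays its call was lost in 14 of 18 fits. With the 0 hr arrays left out of the fit, 4 genes passed in control (20.7% of all genes): Nppb, Actc1, Myom1 and Pgam2, which rose by 0.67 (adjusted p = 0.023), while Nebl (0.0516) and Ankrd1 (0.0629) missed the threshold. All 3 arrays of each 72 hr group were female by Xist and 1 of 3 at 3 hr. With high or low Xist as a term in the fit, 2 of 33 genes passed in control and 0 in Cebpa d/d, and of these 5 genes Nppb kept its call in control (adjusted p = 0.0191), while Actc1 did not (0.14 in control and 0.117 in Cebpa d/d). Without control 3 hr replicate 3, 0 of 33 passed in control.

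In Cebpa d/d, 14 of the 33 genes had the arrays at 72 hr apart from those at 3 hr (28.3% of all genes in either direction). Of these, 12 were lower at 72 hr (13.0% of all genes), among them Myh6, Myl7, Tnnc1, Tnni3, Ttn, Csrp3, Myoz2, Mb and Sln, and Actc1 and Trdn were higher. In control 12 were apart, 5 higher and 7 lower (40.3% of all genes in either direction). With the 0 hr arrays left out of the fit, 4 genes passed in Cebpa d/d (8.27% of all genes): Csrp3 at -0.52 (adjusted p = 0.0343), Ttn at -0.72 (0.0355), Actc1 at 0.81 (0.0284) and Trdn at 0.47 (0.0454). The interaction, which asks whether the genotypes differ in this change, passed for 0 of the 33 genes (0.01% of all genes), with 4 at an unadjusted p under 0.05 (12.1%, against 6.06% of all genes) and a smallest adjusted p of 0.813, so no difference between the genotypes in these changes was detected. The median member difference was -0.21 in control and -0.23 in Cebpa d/d, against -0.07 and 0.00 over all genes.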

How the data were processed

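Total RNA of mouse lung samples was measured on 18 Affymetrix Mouse Gene ST arrays. The values used are the log2 levels deposited by the authors, which RMA produced, per the submitters' processing notes (background correction, normalization between arrays and summary per probe set); version, genome build and filters are not given in the sources used here. The number of arrays limits the precision.

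Of 35557 probe sets, 21789 had 1 symbol, 1621 several and 12147 none; the last kinds were left out. For a gene with several probe sets the one with the highest mean over 18 arrays was kept, giving 19938 genes, of which 19855 were in the RefSeq table with 0 symbols changed. A model of 6 group means was fitted to all 18 arrays with limma 3.58.1 in R 4.3.3 (lmFit and eBayes), with Benjamini-Hochberg adjustment over 19938 genes and a threshold of 0.05. It was tested on simulated data. Contrasts using 0 hr arrays were not tested. Members and gene lists were chosen with earlier results of these data known. Named genes were the 33 members, 14 others fixed by name (Myl2, Myh7, Acta1, Mylpf, Myh11, Acta2, Pecam1, Col1a1, Msln, Adipoq, Scgb1a1, Foxj1, Sftpc and Cebpa), up to 6 genes each of the other cardiac and transcription factor lists by 0 hr difference, and the 15 genes most like the members' mean; others are said to be chosen after their values were seen. The printed start regions come from RefSeq.

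Alternatives were a replicate term, the mean of all probe sets, a filter at the median level, a trended robust variance, fewer groups in the fit, median centring, leaving out each array and, added after seeing the data, a term for high or low Xist level (threshold 8).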

Additional observations from a re-analysis of the deposited data

Results flagged for a closer look

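Pgam2 (-0.66), Lmod2 (-0.15), Myom1 (-0.28) and Tcap (-0.36) had every Cebpa d/d array below every control array at 72 hr, and every Cebpa d/d array above every control array at 0 hr. The numbers in brackets are the differences at 72 hr, and 0 of the 4 passed limma's test there. The difference between the times was not tested, because the 0 hr contrast chose the genes.

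Trdn has probe sets that were not kept and that differed by more than the kept one at 0 hr. Set 10362404 differed by 2.7 between Cebpa d/d and control, set 10362442 by 2.03 and set 10362436 by 1.31, each with all Cebpa d/d arrays above all control arrays, against 1.20 in the set kept.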

How the results depend on the processing

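The count of heart muscle genes passing at 3 hr and at 72 hr between genotypes, and for the interaction of genotype with time, was 0 under every alternative run. Other counts moved. Between 3 and 72 hr in control 5 genes passed, against 3 with only the groups compared in the fit, 2 with the Xist term, 4 without the 0 hr arrays (3 of the 5, and Pgam2), and 0 to 6 without single arrays (leaving out control 3 hr replicate 1 gave 3, 3 hr replicate 3 gave 0, 72 hr replicate 1 gave 1, and 72 hr replicate 2 or 3 gave 2). In Cebpa d/d 1 passed, against 2 with the mean of all probe sets, 2 with only the groups compared, 4 without the 0 hr arrays, 0 with the Xist term, and 0 to 1 without single arrays (0 without Cebpa d/d 3 hr replicate 1 or 3 or 72 hr replicate 3). Of single calls, Ankrd1 missed the threshold with trended variance (adjusted p = 0.0636) and in 14 of 18 fits without an array. Over all genes, 3 passed between genotypes at 3 hr, against 0 with the level filter, 7 with only the groups compared, 11 without the 0 hr arrays and 1 to 15 without single arrays. At 72 hr 14 passed, against 7 with the level filter, 6 with only the groups compared and 12 to 20 without single arrays. Between 3 and 72 hr 3934 passed in control, against 2615 with only the groups compared, 2444 with the Xist term and 2307 to 4269 without single arrays, and 1705 in Cebpa d/d, against 931 with the Xist term and 768 to 1902. For the interaction 2 passed, against 1 with the replicate block, 0 with the level filter, 1 without the 0 hr arrays and 1 to 2 without single arrays. The cause was not tested. The median 0 hr difference was 1.64 to 2.19 without single arrays. Over all genes, the deviations of same-numbered arrays from their group means had correlations of -0.29 to 0.20 over 45 pairs (median -0.04). Arrays of different numbers had -0.34 to 0.29 over 90 pairs (median 0.02). Whether a shared number marks a batch or litter cannot be told from this, as an effect limited to few genes would not show. With the replicate block 5 members passed in control and 1 in Cebpa d/d, and Nebl missed the threshold (adjusted p = 0.0535).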
